A study of Mus musculus with 2 samples.

Results

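Vascular endothelial growth factor (VEGF) signalling in the mouse was followed through 9 genes, chosen by symbol from the 32285 genes of the deposited count tables. They were the ligands Vegfa, Vegfb, Vegfc and Pgf, the receptor tyrosine kinases Flt1, Kdr and Flt4, and the neuropilin co-receptors Nrp1 and Nrp2, and each symbol matched 1 gene. The data were 2 single-cell RNA libraries of whole embryos at embryonic day 9.5, prepared with a droplet-based 3′ chemistry. One library came from wild-type (Usb1+/+) embryos and the other from Usb1-null (Usb1-/-) embryos, which carry a germline CRISPR/Cas9 knockout designed to delete exons 1 and 2 of Usb1, which codes for an exonuclease that processes the tail of the U6 spliceosomal RNA. The study asked whether cell types of the embryo were altered without Usb1. The sources used here do not give the number of embryos pooled per library, nor their strain.

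Ligands of this family are secreted and bind receptor tyrosine kinases, most of them on endothelial cells. Vegfa signals mainly through Kdr (VEGFR2) and is needed for the first blood vessels to form. Flt1 (VEGFR1) binds Vegfa, Vegfb and Pgf, and its soluble form acts as a trap for Vegfa. Vegfc acts on Flt4 (VEGFR3), which marks embryonic veins and later the lymphatic vessels. The neuropilins bind both VEGFs and the class 3 semaphorins, and so serve in vessels and in axon and neural crest guidance. Vegfa is transcribed more when oxygen is low, through the hypoxia-inducible factors (HIF).

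The 250 bases upstream of the RefSeq start are shown for the 3 receptor kinases, which shared their highest class, and for Vegfa, whose level differed most between the libraries. The build is GRCm38.p6, and capitals mark the ETS core GGAA on either strand, the core bound by ETS factors such as Fli1 and Erg. The windows lie at chr17:46032378-46032627 on the minus strand for Vegfa, chr5:147726012-147726261 on the minus strand for Flt1, chr5:75978456-75978705 on the minus strand for Kdr, and chr11:49609429-49609678 on the plus strand for Flt4.
Vegfa: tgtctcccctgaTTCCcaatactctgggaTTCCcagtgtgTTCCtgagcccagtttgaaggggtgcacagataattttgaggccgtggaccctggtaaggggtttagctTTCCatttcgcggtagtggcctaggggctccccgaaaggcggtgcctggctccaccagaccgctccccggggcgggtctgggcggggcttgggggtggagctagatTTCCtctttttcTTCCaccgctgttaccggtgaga
Flt1: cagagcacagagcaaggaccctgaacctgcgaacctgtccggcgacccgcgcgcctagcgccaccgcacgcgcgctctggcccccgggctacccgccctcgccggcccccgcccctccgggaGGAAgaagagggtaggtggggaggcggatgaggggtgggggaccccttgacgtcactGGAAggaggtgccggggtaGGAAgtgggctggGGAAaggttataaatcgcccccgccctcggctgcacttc
Kdr: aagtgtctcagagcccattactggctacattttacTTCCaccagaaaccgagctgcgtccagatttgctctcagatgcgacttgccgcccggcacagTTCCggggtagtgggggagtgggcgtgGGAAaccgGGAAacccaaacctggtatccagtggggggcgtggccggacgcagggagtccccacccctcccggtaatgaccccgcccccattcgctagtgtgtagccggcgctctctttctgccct
Flt4: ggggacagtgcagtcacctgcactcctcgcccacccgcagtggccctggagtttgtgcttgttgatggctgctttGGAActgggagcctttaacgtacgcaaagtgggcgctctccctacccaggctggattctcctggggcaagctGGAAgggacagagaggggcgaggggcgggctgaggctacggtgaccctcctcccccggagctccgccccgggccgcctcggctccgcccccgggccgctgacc

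The ETS core occurred 6 times in the Vegfa window, 4 times in those of Flt1 and Kdr and 2 times in that of Flt4. Of all 32851 mouse promoter windows of this length, 93.4% held it at least once, with a median of 3. The hypoxia response core, ACGTG or GCGTG on either strand, was found 2 times in the Kdr window, at 131 and 89 bases before the start, and 1 time in that of Flt1, at 184 bases. It was not found in the windows of Vegfa or Flt4, and 38.6% of all windows held it. The letters TATAAA stood 31 bases before the start of Flt1 and in no other member's window, against 7.59% of all windows on the sense strand. These matches describe letters in a short window and no binding was measured.

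The genes lie on chromosome 17 (Vegfa, 46016993 to 46032369), 19 (Vegfb, 6982473 to 6987651), 8 (Vegfc, 54077606 to 54187096; Nrp1, 128358604 to 128503363), 12 (Pgf, 85166635 to 85177790), 5 (Flt1, 147561604 to 147726011; Kdr, 75932827 to 75978458), 11 (Flt4, 49609263 to 49652739) and 1 (Nrp2, 62703285 to 62818695) of GRCm38 in the GENCODE M21 annotation. Because the chemistry reads transcripts near their 3′ ends, isoforms were not told apart. Flt1 has 2 annotated protein-coding 3′ ends 73.6 kb apart, and membrane-bound and soluble forms were counted as 1 gene. Nrp2 overlaps the antisense gene Gm29083, and the sources used here do not say how strand was counted.

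The filters kept 15161 wild-type and 13018 Usb1-null cells, with 21732106 and 33383886 unique molecular identifiers (UMIs). The Usb1-null cells were deeper, with a median of 2299.5 UMIs against 1243 in wild-type cells, a 1.85-fold gap. Levels are therefore given as CPM, in which the UMIs of a gene are scaled to an equal total of UMIs in each group of cells. With 1 library per group no difference has a replicate check and no test was made, and the 95% intervals cover counting error only. A ratio is Usb1-null CPM over wild-type CPM throughout. Usb1 itself was at 3.13 CPM in the wild-type and 1.41 CPM in the Usb1-null library (68 and 47 UMIs), but 3′ tags outside the deleted exons do not check the deletion. The wild-type library held 53276 Xist UMIs and 14 from Y-linked genes, and the Usb1-null library 26 and 23463, so genotype and sex of the embryos cannot be told apart. The libraries shared 61 cell barcodes, 0.402% of the wild-type ones.

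Cells were grouped into 20 clusters with the 9 genes left out of the clustering, and 18 clusters had at least 50 cells in each library. All orders of classes below are among these 18. A cluster carries a cell class name ending in "-like" where marker genes gave one, and a number otherwise. The endothelial-like cluster had all 15 endothelial markers raised, Emcn, Cdh5, Cldn5, Tek and Egfl7 among its 10 leading genes. It held 892 wild-type cells, 5.88% (95% interval 5.51 to 6.27), and 779 Usb1-null cells, 5.98% (5.58 to 6.41). The shares therefore differed by less than their counting error.

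Vegfa was detected in all 18 classes and was highest in extraembryonic and surface epithelium and in the heart, and low in endothelium. In yolk sac endoderm-like cells it reached 104 CPM (wild-type) and 155 CPM (Usb1-null). Next came the cardiomyocyte-like cells at 75.2 and 117 CPM and the surface ectoderm-like cells at 67.1 and 115 CPM. These 3 classes held the same first 3 places in each library, although none was separated from the next beyond counting error. By the mean of both libraries the lowest levels were those of the endothelial-like cells, 28.9 and 58.3 CPM, and of the primitive erythroid-like cells, 36.8 and 41.8 CPM, while in the wild-type library alone neuron-like cells were lowest at 22.8 CPM. Over the 18 classes in both libraries (36 points that share libraries and depth) the gene most like Vegfa was Bnip3, a HIF target, with a Pearson r of 0.798, then Zfp395 (0.774) and Loxl2 (0.771). These values include the gap between the libraries, in which Bnip3 also differed. Over the 18 points of the wild-type library alone they were 0.47, 0.63 and 0.56, and over those of the Usb1-null library 0.78, 0.68 and 0.70.

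Vegfb, a ligand of Flt1, was lowest in the endothelium. Its level ran from 16.2 and 11.47 CPM in endothelial-like cells to 57.8 and 41.6 CPM in cluster 9, a low-depth cluster with no clear markers, which was highest by the mean. No neighbours in the order of the 18 classes were separated beyond counting error in both libraries. The genes most like it across classes were Dancr, with a Pearson r of 0.682, Bri3bp (0.672) and Glcci1 (0.653).

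Vegfc was concentrated in mesenchyme and endothelium. Cluster 10, led by Ebf1, Ebf2, Tbx1 and Ddr2, had 583 CPM in the wild-type and 589 CPM in the Usb1-null library. This was 1.85-fold the mean of the next class, the endothelial-like cells at 338 and 295 CPM. Somite and sclerotome-like cells followed at 262 and 333 CPM and intermediate mesoderm-like cells at 259 and 278 CPM, and the endothelial-like and somite and sclerotome-like cells changed places between libraries. The lowest level was 24.7 and 31.3 CPM, in cluster 16. Pgf, placental growth factor, was scarce everywhere, and its highest values were again in cluster 10 (38.9 and 22.1 CPM) and in cluster 4 (25.2 and 21.4 CPM), a cluster with limb and lateral plate markers. Vegfc and Pgf followed each other over the 36 points with a Pearson r of 0.68, the highest value between a pair of ligands. Vegfc was most like Zcchc24 (0.821), Colec12 (0.813) and Igfbp4 (0.806), and Pgf most like Crispld1 (0.811), Twist2 (0.755) and Ptgis (0.755).

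**Figure D1:**
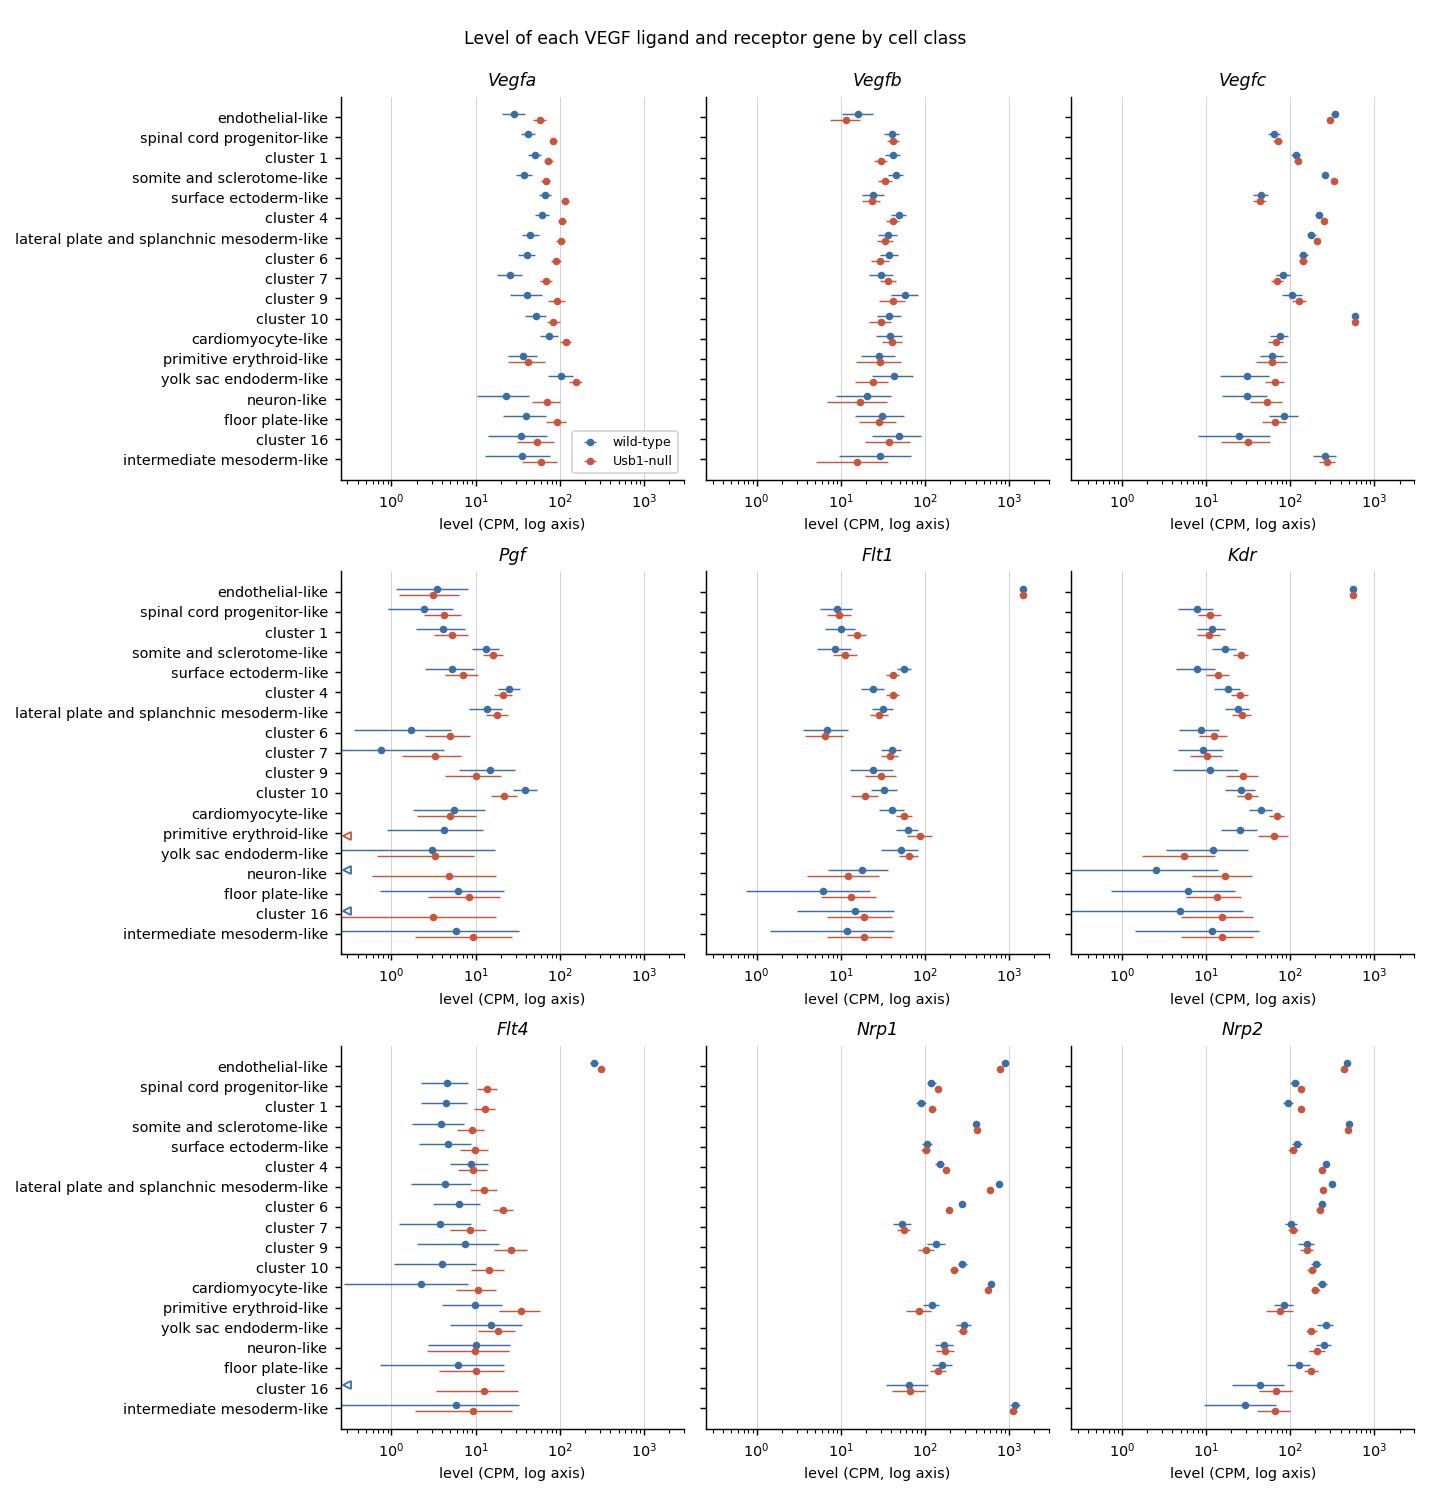
Level of each gene in CPM on a log axis for 18 cell classes, wild-type in blue and Usb1-null in red, with exact Poisson 95% intervals for counting error. Open triangles stand for 0 UMIs and some low intervals run off the left edge. Flt1, Kdr and Flt4 stand far to the right in endothelial-like cells, at 1476, 552 and 256 CPM in the wild-type library, while the ligands and neuropilins spread over many classes.

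Among the 18 classes the 3 receptor kinases were highest in endothelial-like cells. In endothelial-like cells Flt1 was at 1476 CPM (wild-type) and 1451 CPM (Usb1-null), 19.4-fold the mean of the next class, primitive erythroid-like cells at 62.3 and 88.5 CPM. Kdr was at 552 and 563 CPM, 9.71-fold the next class, cardiomyocyte-like cells at 44.9 and 70.0 CPM. The white blood cell and megakaryocyte-like cluster, too small to be ranked, had 8 and 4 Kdr UMIs, at 385.5 and 279 CPM. Flt4 was at 256 and 309 CPM, 12.7-fold the next class, primitive erythroid-like cells at 9.92 and 34.4 CPM. In each case both libraries of the endothelial-like class lay above both libraries of every other ranked class. The endothelial-like cells held 80.9% of all wild-type and 80.2% of all Usb1-null Flt1 UMIs. For Kdr the shares were 71.8% and 66.5%, and for Flt4 77.1% and 63.5%.

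The Pearson r over the 36 points was 0.79 for Flt1 and Kdr, 0.72 for Kdr and Flt4 and 0.71 for Flt1 and Flt4, and it rested largely on the endothelial-like class. Over the 34 points without that class the values were 0.40, 0.28 and 0.21. The genes most like Flt1 were Prkch (0.893), Cd34 (0.872) and 4930542D17Rik (0.856). For Kdr they were Klhl6 (0.894), Mef2a (0.848) and Cd93 (0.844), and for Flt4 Cdk17 (0.868), 4930542D17Rik (0.868) and Adgrf5 (0.849). Without the endothelial-like class these 9 values lay between 0.52 and 0.77. The member most like Vegfa was Pgf at 0.40.

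The neuropilins were spread over several lineages, and each had a different peak. Nrp1 was highest in intermediate mesoderm-like cells, at 1172 CPM in the wild-type and 1127 CPM in the Usb1-null library. The endothelial-like cells came second in both libraries at 891 and 773 CPM, followed by lateral plate and splanchnic mesoderm-like cells at 758 and 591 CPM. Nrp2 was highest in somite and sclerotome-like cells, at 498 and 490 CPM, followed by endothelial-like cells at 477 and 443 CPM. These 2 classes were not separated beyond counting error, and with another random seed for the clustering the endothelial-like cells were higher, at a mean of 461 against 399 CPM. Intermediate mesoderm-like cells, at the top for Nrp1, were the lowest of the 18 classes for Nrp2, with 29.5 and 65.6 CPM from 5 and 21 UMIs. Over the 36 points Nrp1 was most like Prickle1 (0.845), Tgfbr3 (0.812) and Anxa6 (0.799), and Nrp2 most like Flrt2 (0.757), Lifr (0.721) and Kank2 (0.713). The Pearson r of Nrp1 and Nrp2 with each other was 0.40.

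Within the endothelial-like cells the members separated vessel types. Clustered again without the members, these cells gave 8 sub-clusters, of which 3 could be named from marker genes. The arterial-like sub-cluster (109 wild-type and 87 Usb1-null cells) had 9 arterial markers raised, among them Gja4, Gja5, Dll4 and Hey1. The venous-like one (96 and 116 cells) had 4, Dab2, Stab2, Lyve1 and Flrt2, and the endocardial-like one (85 and 72 cells) had 9, among them Npr3, Nfatc1 and Gata4. Of the unnamed sub-clusters, 1 held 24 wild-type cells and 1 Usb1-null cell.

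Nrp1 and Vegfc were highest in the arterial-like cells and Nrp2 in the venous-like cells, in both libraries. In arterial-like cells Nrp1 was at 1998 CPM (95% interval 1779 to 2237) in the wild-type and 1561 (1398 to 1738) in the Usb1-null library, against 776 and 570 CPM in venous-like and 697 and 702 CPM in endocardial-like cells. Vegfc was at 1767 (1561 to 1992) and 1195 (1053 to 1352) CPM in arterial-like cells, but at 92.5 and 131 CPM in venous-like cells. Nrp2 had the reverse order, with 33.1 (10.7 to 77.2) and 79.7 (46.4 to 128) CPM in arterial-like and 883 (734 to 1052) and 694 (605 to 793) CPM in venous-like cells. None of these arterial and venous intervals overlapped in either library. Nrp2 was also high in the unnamed sub-cluster 1, at 742 and 624.5 CPM, with intervals that overlapped the venous-like ones in both libraries. In sub-cluster 2, a deeper group (median 1974 and 3324 UMIs) with mesenchymal genes such as Prrx1 and Fap among its leading genes, it was at 588 CPM (508 to 677) and 601 CPM (541 to 666), below the venous-like level in the wild-type library and overlapping it in the Usb1-null library.

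The kinases differed among vessel types as well. Flt1 was at 2210 and 2555 CPM in arterial-like, 1331 and 1405 CPM in venous-like and 833 and 879 CPM in endocardial-like cells, the same order of these 3 in both libraries. The unnamed sub-cluster 0 had 2303 and 2178 CPM, in the wild-type library slightly above the arterial-like cells with overlapping intervals. Flt4 was at 132 and 211 CPM in arterial-like and 263 and 387 CPM in venous-like cells, and lowest in endocardial-like cells at 96.1 and 80.4 CPM. Their wild-type intervals overlapped, 80.8 to 204 against 185 to 363 CPM, and the Usb1-null ones did not. Higher Flt4 was found in both libraries of unnamed sub-clusters 0 and 1, at 504 and 407 CPM in sub-cluster 1, in which the venous markers Aplnr and Maf were raised, and at 308 and 459 CPM in sub-cluster 0, led by Arap2, Mdga2 and Vwa1. Of these, only sub-cluster 1 in the wild-type library, at 414 to 607 CPM, lay wholly above the venous-like interval. The other intervals overlapped the venous-like ones. Sub-cluster 7, with 1 Usb1-null cell, had 501 CPM (259 to 875) in the wild-type library. Kdr was lower in arterial-like than in venous-like cells of the wild-type library, and the order in the Usb1-null library was not resolved. In arterial-like cells it was at 404 CPM (309 to 518) in the wild-type and at 638 CPM (535 to 754) in the Usb1-null library, and in venous-like cells at 712 CPM (579 to 866) and 602 CPM (519 to 694). By the mean of both libraries Kdr was highest in the unnamed sub-cluster 0, at 732 and 812 CPM.

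**Figure D2:**
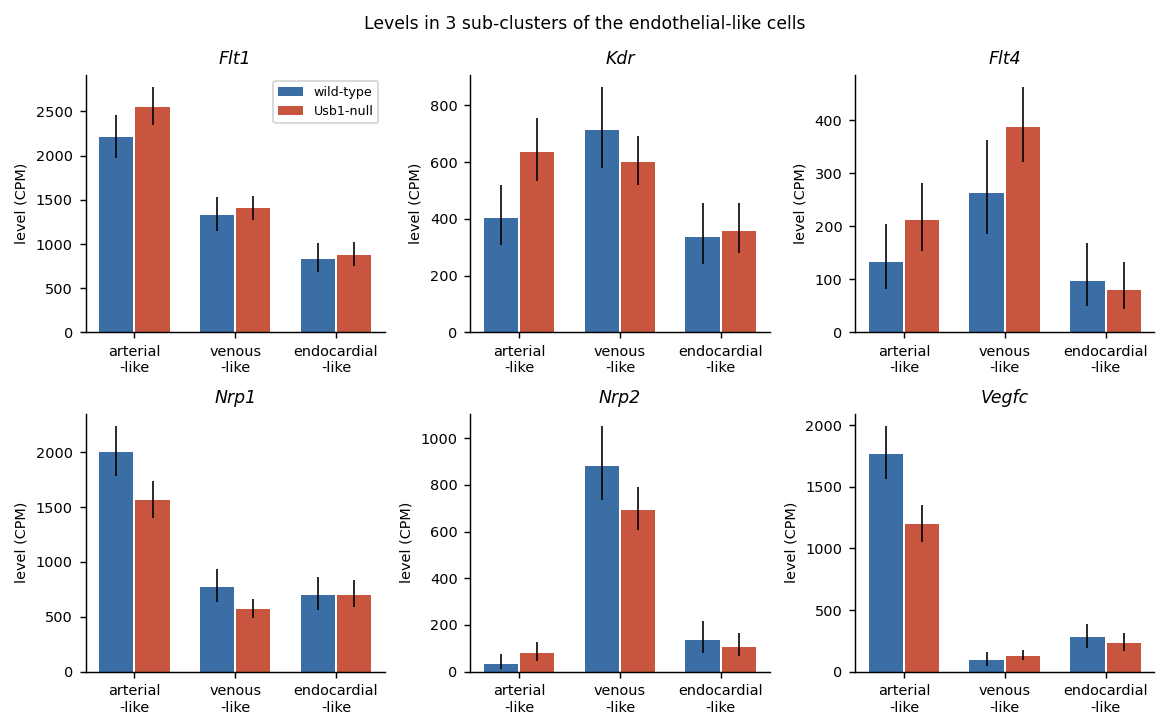
Level in CPM of 5 receptor genes and Vegfc in 3 sub-clusters of the endothelial-like cells. Bars are wild-type (blue) and Usb1-null (red) libraries with exact Poisson 95% intervals. Nrp1 and Vegfc are highest in arterial-like cells and Nrp2 in venous-like cells in both libraries.

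Single endothelial-like cells often held more than 1 receptor transcript. Each cell was thinned to 800 UMIs, which left out 131 wild-type and 6 Usb1-null endothelial-like cells and kept 761 and 773. Flt1 had a UMI in 61.5% of wild-type and 63.1% of Usb1-null cells, Kdr in 33.8% and 37.1%, Flt4 in 19.2% and 23.5%, Nrp1 in 46.1% and 41.1%, and Nrp2 in 29.2% and 27.7%. At least 1 of the 3 kinases was seen in 77.1% of wild-type cells (74.0 to 80.1) and in 80.7% of Usb1-null cells (77.8 to 83.4). Without thinning these shares were 88.7% and 96.7%. Primitive erythroid-like cells, with a median before thinning of 841.5 and 1728 UMIs against 1358.5 and 2508 in endothelial-like cells, gave 5.41% (3.23 to 8.41) and 8.24% (4.69 to 13.2) for the same measure, from 333 and 182 cells. Each of the 5 receptor shares lay above its erythroid value, which ran from 0% for Flt4 to 7.21% for Nrp1 in the wild-type library and from 0.549% for Flt4 to 4.95% for Kdr in the Usb1-null library.

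Kdr and Flt1 were seen together in 22.5% of wild-type and 24.5% of Usb1-null endothelial-like cells. Among wild-type cells with a Kdr UMI 66.5% had Flt1, against 58.9% of those without Kdr, with overlapping intervals (60.4 to 72.3 and 54.5 to 63.3). The Usb1-null values were 65.9% and 61.5%, and these intervals overlapped too. Vegfc was seen in a smaller share of the cells with a UMI of its receptor Flt4 at this depth, a difference that was not tested. It had a UMI in 9.59% (5.34 to 15.6) of the wild-type cells with Flt4 and in 18.0% (15.1 to 21.3) of those without. In the Usb1-null library the values were 10.4% (6.40 to 15.8) and 17.9% (14.9 to 21.3). The 2 intervals overlapped slightly in each library. Thinned to 1500 UMIs, the shares were 15.4% and 23.7% in the wild-type library and 21.3% (16.2 to 27.2) and 24.6% (20.6 to 29.0) in the Usb1-null library, and without thinning they were 17.4% (13.0 to 22.5) and 26.2% (22.8 to 29.8) in the wild-type and 32% and 35.4% in the Usb1-null library. In the wild-type library the 2 intervals at 1500 UMIs overlapped, 9.06 to 23.8 and 18.9 to 29.2, and those without thinning did not. In the Usb1-null library they overlapped in both settings. The gap was not compared between the libraries.

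Between the libraries, Vegfa and Flt4 were the members that differed most. Over whole libraries 2 of the 9 genes exceeded 1.5-fold in favour of the Usb1-null library and 0 in favour of the wild-type library. Among the 15031 genes with at least 100 UMIs, 6.95% were that much higher and 5.43% that much lower. Vegfa went from 46.8 CPM (1018 UMIs) to 87.9 CPM (2934 UMIs), a ratio of 1.88 (1.75 to 2.02). Flt4 went from 21.7 CPM (472 UMIs) to 33.0 CPM (1102 UMIs), a ratio of 1.52 (1.36 to 1.70). Without the blood classes the Flt4 ratio was 1.49, just inside the 1.5-fold limit.

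The other members differed by less. Kdr was at 50.3 and 57.5 CPM, a ratio of 1.14 (1.06 to 1.23), and Vegfc at 162 and 175 CPM, a ratio of 1.08. Flt1 was at 119 and 123 CPM with a ratio of 1.03 (0.980 to 1.08), and Pgf at 8.88 and 9.38 CPM with a ratio of 1.06 (0.880 to 1.27). On the lower side were Vegfb, at 37.0 and 31.96 CPM with a ratio of 0.865 (0.789 to 0.949), Nrp1 at 295 and 276 CPM with a ratio of 0.936, and Nrp2 at 227 and 219 CPM with a ratio of 0.962. Within the classes that held at least 20 UMIs of the gene, Kdr had a ratio above 1 in 12 of 13, Vegfb in 4 of 16, Nrp1 in 7 of 18 and Nrp2 in 7 of 18, and most of these intervals included 1. The median log2 ratio of the 9 genes was 0.08, against -0.01 over all 15031 genes.

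**Figure D3:**
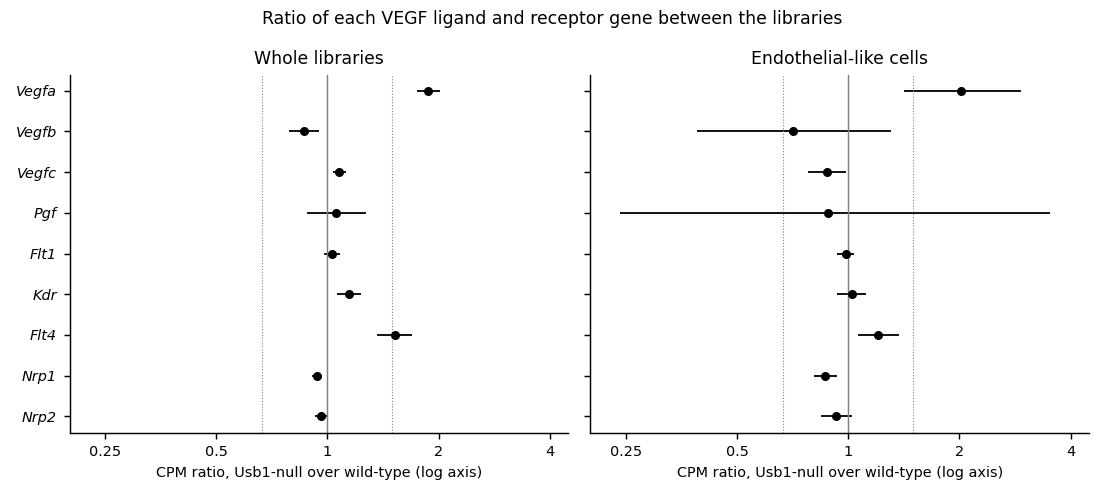
CPM ratio of Usb1-null over wild-type for the 9 genes, on a log axis, over whole libraries (left) and in endothelial-like cells (right). Bars are exact 95% intervals for counting error and dotted lines stand at 1.5-fold up and down. Vegfa lies past the upper line in both panels and Flt4 only in the whole libraries.

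The Vegfa difference was present across lineages. Its ratio was above 1 in 18 of 18 classes, with a median of 1.77, and its interval lay wholly above 1 in 15 of them. The 18 classes come from the same pair of libraries and are not separate checks. The part of sex, depth or free RNA in this difference was not tested. In yolk sac endoderm-like cells the ratio was 1.49 (1.02 to 2.23), in cardiomyocyte-like cells 1.56 (1.17 to 2.11), in surface ectoderm-like cells 1.72 (1.40 to 2.12) and in endothelial-like cells 2.02 (1.41 to 2.94). The largest were 3.095 (1.43 to 7.43) in neuron-like cells, from 9 and 29 UMIs, and 2.65 (1.82 to 3.98) in cluster 7, from 25.8 to 68.4 CPM. With the wild-type cluster shares applied to both libraries the whole-library ratio was 1.84. After thinning to 800 UMIs, 3.74% of wild-type and 7.02% of Usb1-null cells had a Vegfa UMI. Without thinning the shares were 6.31% and 18.9%. The thinned shares in erythroid-like cells were 3.30% and 2.20%, and those in endothelial-like cells were 1.84% and 4.53%, with overlapping intervals in each library, so these shares do not set the endothelium apart from blood cells. In the erythroid-like cells Vegfa had a ratio of 1.13 (0.578 to 2.17).

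The Flt4 ratio was larger outside the endothelial-like cells than in them, with intervals that did not overlap, although the difference was not tested. In endothelial-like cells, where most of its transcripts were, it was at 256 and 309 CPM, a ratio of 1.21 (1.06 to 1.37). Among its sub-clusters the ratio varied, from 0.808 (0.612 to 1.07) in sub-cluster 1 and 0.836 (0.365 to 1.96) in endocardial-like cells to 1.49 (1.17 to 1.91) in sub-cluster 0, 1.47 in venous-like and 1.59 (0.922 to 2.85) in arterial-like cells. In all other cells together it was at 5.32 CPM (108 UMIs) in the wild-type and 12.9 CPM (402 UMIs) in the Usb1-null library, a ratio of 2.43 (1.96 to 3.03). The ratio was above 1 in 13 of the 13 classes with at least 20 Flt4 UMIs and its interval wholly above 1 in 9. Examples are spinal cord progenitor-like cells with 4.53 and 13.9 CPM, cluster 6 with 6.33 and 21.3 CPM and cluster 10 with 3.99 and 14.3 CPM. These levels were all below those of the primitive erythroid-like cells, 9.92 and 34.4 CPM from 7 and 14 UMIs, a class in which the 15 endothelial markers summed to 310 CPM in the wild-type and 551 CPM in the Usb1-null library. That class is therefore no clean background for Flt4, and the part of free RNA in these low levels was not tested.

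The 2 other kinases did not show a ratio of this size outside the endothelium. Kdr was there at 15.2 and 20.6 CPM, a ratio of 1.36 (1.18 to 1.56), and Flt1 at 24.4 and 26.1 CPM, a ratio of 1.07 (0.956 to 1.20). Per 100 UMIs of the 15 endothelial markers in the same cells, Flt4 had 4.11 in wild-type and 6.11 in Usb1-null endothelial-like cells, and 5.06 and 12.6 in all other cells. For Flt1 the values were 23.7 and 28.7 inside and 23.2 and 25.4 outside. For Kdr they were 8.86 and 11.1 inside and 14.5 and 20.1 outside. The summed endothelial markers outside the endothelial-like cells were at 105 CPM in the wild-type and 103 CPM in the Usb1-null library. The 15 marker ratios ran there from 0.669 to 2.15, with a median of 1.10 against 0.786 inside. Cdh5 had 1.78 (1.32 to 2.42) outside and 1.03 inside, and Pecam1 1.47 (1.19 to 1.82) and 0.8575. Ramp2, at 0.669 (0.547 to 0.819), and Egfl7, at 0.788 (0.715 to 0.869), were below 1 outside as well. A larger ratio outside than inside was thus not particular to Flt4. In cells outside the cluster with no UMI of any endothelial marker, 12543 wild-type and 9919 Usb1-null cells, Flt4 was at 4.78 and 12.4 CPM, a ratio of 2.59 (2.02 to 3.34). The part of sex, depth or free RNA in this difference was not tested.

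**Figure D4:**
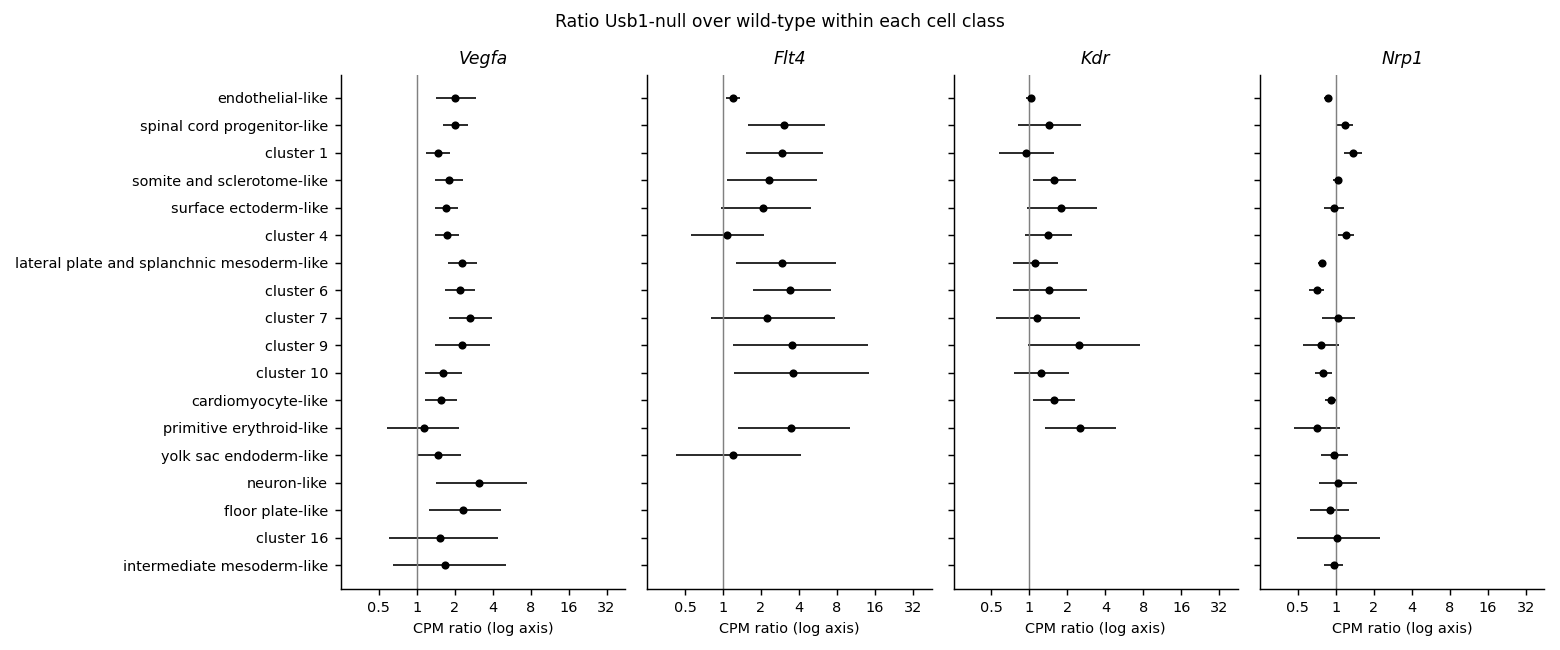
CPM ratio of Usb1-null over wild-type for Vegfa, Flt4, Kdr and Nrp1 within each cell class, on a log axis, with exact 95% intervals. Classes with fewer than 20 UMIs of the gene are not drawn. Vegfa lies above 1 in 18 of 18 classes, Flt4 in 13 of 13, and Nrp1 on both sides of 1.

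In the endothelial-like cells 7 members had at least 50 UMIs. One of the 7, Vegfa, was at least 1.5-fold higher and 0 at least 1.5-fold lower, against 6.45% and 7.05% of the 9106 genes counted there. Flt1 and Kdr differed by less than their counting error, with ratios of 0.983 (0.930 to 1.04) and 1.02 (0.932 to 1.12). Another 3 members had ratios below 1, Nrp1 at 891 and 773 CPM with a ratio of 0.867 (0.806 to 0.933), Vegfc at 338 and 295 CPM with a ratio of 0.874 (0.776 to 0.985), and Nrp2, whose interval included 1, with a ratio of 0.928 (0.841 to 1.02). The lower Nrp1 and Vegfc were also seen within the arterial-like cells, with ratios of 0.781 (0.667 to 0.916) and 0.677 (0.568 to 0.806). Other sub-clusters differed. Vegfc was higher in sub-cluster 6, at 2.62 (1.58 to 4.53), and near 1 in sub-clusters 0, 1 and 2, at 1.02, 0.987 and 1.03. Sub-cluster 6 had neural leading genes such as Dcc and Fgf14 and the highest depth, with a median of 2417.5 and 4666.5 UMIs, and the part of mixed droplets in it was not tested. In venous-like cells the Vegfc ratio was 1.42 (0.745 to 2.88). Nrp1 was lower in venous-like cells too, at 0.734 (0.575 to 0.941), and lowest in sub-cluster 1, at 0.638 (0.491 to 0.827). In sub-cluster 6 it had 0.772 (0.582 to 1.025). Its ratio was 1.007 (0.762 to 1.34) in endocardial-like cells and 0.971 and 1.04 in sub-clusters 0 and 2. Sub-cluster 7, with 1 Usb1-null cell, is left aside here. In arterial-like cells Kdr was higher, at a ratio of 1.58 (1.16 to 2.17). Vegfb and Pgf had 49 and 12 UMIs in these cells and were not counted. The endothelial marker genes themselves were mostly lower, with a median ratio of 0.786 over the 15 and a range from 0.472 for Icam2 to 1.03 for Cdh5, and their summed level was 6231 CPM against 5053 CPM in the Usb1-null library. Their part in these ratios was not tested.

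The pathway around the members was read from 8 gene lists. No test of a list was made. The shares of all genes to set beside each list's count are 6.95% higher and 5.43% lower over whole libraries, and 6.45% and 7.05% in endothelial-like cells. Among 17 genes of oxygen sensing and HIF targets, 6 were at least 1.5-fold higher over whole libraries and 0 lower, against 6.95% and 5.43% of all genes, with a median log2 ratio of 0.33 against -0.01. Bnip3, a mitophagy receptor, was at 27.1 and 67.8 CPM with a ratio of 2.50 (2.28 to 2.74), Ndrg1 had a ratio of 1.76 and Ankrd37 one of 1.74. Epas1, a HIF alpha subunit of endothelium, was lower at 10.7 and 7.58 CPM, with a ratio of 0.710 (0.592 to 0.852). Slc2a1 and Ldha, of the same list, had whole-library log2 ratios of -0.04 and 0.04. In endothelial-like cells 3 of the 12 counted were at least 1.5-fold higher, against 6.45% of all genes there, Bnip3 at 3.14 (1.97 to 5.21), Egln3 at 1.84 and Pdk1 at 1.51. The lowest there were Epas1 at 0.670 (0.531 to 0.846), Egln2 at 0.676 (0.426 to 1.07) and Slc2a1 at 0.868 (0.7865 to 0.958). Of the 12, 8 had a ratio above 1 and 4 below.

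Of 22 ligand processing and semaphorin genes, 0 were past 1.5-fold in either direction over whole libraries, where 6.95% of all genes were higher and 5.43% lower. In endothelial-like cells 1 of 17 was higher, against 6.45% of all genes, the semaphorin gene Sema3d, at 9.15 and 23.4 CPM with a ratio of 2.56 (1.38 to 5.11). Over whole libraries Ccbe1, which helps to activate Vegfc, had a ratio of 0.831 (0.776 to 0.890), and Sema3e, a guidance ligand for vessels, one of 1.48 (1.36 to 1.62). In endothelial-like cells Ccbe1 had a ratio of 0.744 (0.432 to 1.29). Of 21 receptor partners and brakes counted over whole libraries, 1 was at least 1.5-fold higher, Spry2, an inhibitor of receptor kinase signalling, at 1.74 (1.58 to 1.91), and 1 at least 1.5-fold lower, the integrin gene Itgb3 at 0.656. In endothelial-like cells 0 of 18 of these genes were past the fold in either direction, against 6.45% and 7.05% of all genes. There 15 of the 18 had a ratio below 1, with a median log2 ratio of -0.13. Of all 9106 genes 47.7% had a ratio above 1, and the median was -0.02. Among the 15 were Plxna4 at 0.668 (0.586 to 0.761) and the phosphatase gene Ptprb at 0.762 (0.684 to 0.848). Of the 3 above 1, another phosphatase gene, Ptprj, was highest at 1.45 (1.04 to 2.045). Among 30 signal relays over whole libraries, 0 were at least 1.5-fold higher and 3 lower, against 6.95% and 5.43% of all genes, Hspb1 at 0.321, Hras at 0.584 and Mapk3 at 0.649, with a median log2 ratio of 0 to 2 decimals. In endothelial-like cells the counts were 0 and 3 of 28, against 6.45% and 7.05% of all genes, and the 3 were Mapk3 at 0.597, Hras at 0.6004 (0.423 to 0.852) and Prkca at 0.627.

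Genes that respond to VEGF or mark tip cells had 4 of 16 at least 1.5-fold higher over whole libraries and 0 lower. The shares of all genes were 6.95% and 5.43%. The median log2 ratio of the list was 0.12, with 11 genes above a ratio of 1 and 5 below. The higher genes included Plaur at 2.56 (2.15 to 3.06), Mcam at 1.96 and Apln, the apelin ligand, at 1.75. The lowest were Rcan1 at 0.792 (0.724 to 0.867), Cd34 at 0.797 (0.714 to 0.890) and Lama4 at 0.858 (0.789 to 0.934). In endothelial-like cells the count was 3 of 14 higher and 1 lower, against 6.45% and 7.05% of all genes. The median log2 ratio was 0.23, with 8 genes above a ratio of 1 and 6 below. The lower gene was the calcineurin inhibitor Rcan1 at 0.606 (0.414 to 0.887). Cd34 at 0.7365 (0.652 to 0.832) and Aplnr at 0.775 (0.673 to 0.8935) also had intervals wholly below 1. For Notch and arterial genes in endothelial-like cells, 1 of 10 was higher and 2 were lower, against 6.45% and 7.05% of all genes. The higher one was Hes1 at 1.55, and the lower ones were the gap junction genes Gja4 at 0.545 (0.386 to 0.768) and Gja5 at 0.614 (0.456 to 0.827). Over whole libraries 0 of 12 passed the fold in either direction, against 6.95% and 5.43% of all genes. Of the endothelial transcription factors 2 of 21 were higher over whole libraries, Hhex at 1.71 and Klf4 at 1.56, against 6.95% of all genes. In endothelial-like cells 1 of 19 was higher, Hhex at 1.55 (1.12 to 2.16), against 6.45% of all genes. Both counts lie near these shares. Of 16 other endothelial receptors and ligands, 1 was past the fold in either setting, on the lower side. Among all genes 5.43% were that much lower over whole libraries and 7.05% in endothelial-like cells. The gene was Ramp2, which carries an adrenomedullin receptor to the surface, at 0.582 over whole libraries and 0.517 (0.443 to 0.603) in endothelial-like cells. There 12 of the 16 had a ratio below 1, with a median log2 ratio of -0.21, where 47.7% of all genes had one above 1. Of these 16 genes, 10 are among the 15 endothelial markers given above, so the list is not a separate result.

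**Figure D5:**
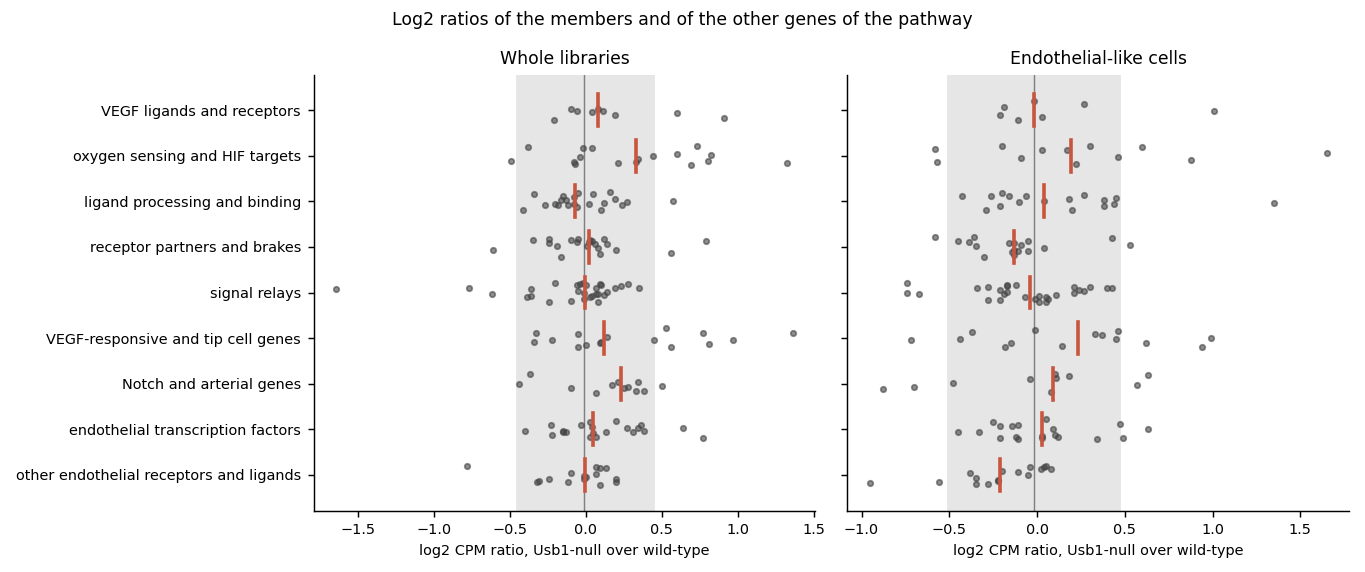
Log2 CPM ratio, Usb1-null over wild-type, of each counted gene of the 9 members and 8 pathway lists, over whole libraries (left) and in endothelial-like cells (right). Red bars are list medians, the grey line is the median of all genes and the grey band spans their 10th to 90th percentile. The oxygen sensing list has the highest median over whole libraries, 0.33.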

How the data were processed

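Single-cell RNA was measured in 1 wild-type and 1 Usb1-null library of whole embryos at E9.5. The labels name the molecule as nuclear RNA, while cells and not nuclei were loaded according to the protocol. The authors deposited, per library, a matrix of raw UMI counts per gene and barcode with no normalisation. The file headers name Cell Ranger 6.1.2 and the submitters' processing notes name Cell Ranger 2.1.1 and mm10. Whether intronic reads were counted is not given in those sources. All 9 members and the gene lists were chosen with earlier results of these data known.

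Cells with 200 to 6000 genes and under 30% mitochondrial UMIs were kept, which removed 1 wild-type and 16 Usb1-null barcodes, all other deposited barcodes having at least 500 UMIs. For clustering, 2000 variable genes per library were chosen with Scanpy 1.11.5. Left out of these were the 9 members, genes of the mitochondrial genome and of ribosomal proteins, Y-linked genes, Gm47283, Tsix and Xist. Then 30 principal components were corrected for library by a NumPy 2.4.6 version of Harmony, and a 15-neighbour graph was partitioned with leidenalg 0.10.2 at the resolution whose number of clusters was nearest to 19. A cluster was named when 1 marker list had the most markers raised at least 2-fold, at least 3 of them and at least 1 among the 10 leading genes. Cell classes were named anew in this way, which could account for departures from the study's own classes. Endothelial-like cells were clustered again with 1000 variable genes and 15 components, at a resolution of 0.6 chosen after seeing the data. Doublets called by Scrublet at an expected rate of 10% (6.76% of wild-type and 4.29% of Usb1-null cells) were kept here and left out in an alternative.

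UMIs were summed per class and library and given as CPM of that sum. Intervals were exact Poisson for levels, Clopper-Pearson for shares and conditional binomial for ratios, at 95%, for counting error only. A fold of 1.5 stood in for a test, over genes with at least 100 UMIs, or 50 within the endothelial-like cells. The ratio code was checked on simulated counts. For each gene the 3 most similar genes were taken by Pearson r of log2(CPM + 1) among 10882 genes with at least 500 UMIs. The values of r within each library and without the endothelial-like class were added after seeing the data. In each list the 3 highest and 3 lowest genes could be named. Single-cell shares were taken after thinning each cell to 800 UMIs. Promoter sequences were those of RefSeq on GRCm38.p6, matched by symbol for 9 of 9 members, at the outermost start of each gene, and overlapping motif matches were counted separately. Alternatives covered the cells kept, doublets, scaling, cluster shares, clustering, marker-based cells, the fold, the UMI minimum and the thinning.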

Additional observations from a re-analysis of the deposited data

Results flagged for a closer look

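Vegfc, Flt1, Nrp1 and Nrp2 were higher in some classes of the Usb1-null library and lower in others, with counting intervals wholly on opposite sides of 1. The difference between classes was not tested, and with 1 library per group its spread between embryos is unknown.

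Nrp1 was higher in 2 of the neural classes, with ratios of 1.37 (1.17 to 1.62) in cluster 1, which holds midbrain and forebrain markers, and 1.19 (1.03 to 1.37) in spinal cord progenitor-like cells, and in cluster 4, at 1.20 (1.03 to 1.39). In neuron-like cells, at 1.03 (0.730 to 1.46), and floor plate-like cells, at 0.891 (0.625 to 1.28), its interval included 1. It was lower in cluster 6, with craniofacial and neural crest markers, at 0.703 (0.618 to 0.799), in lateral plate and splanchnic mesoderm-like cells at 0.780, in cluster 10 at 0.797 and in endothelial-like cells at 0.867. Nrp2 had the same sides in some of these classes, with 1.43 (1.22 to 1.67) in cluster 1 and 1.19 (1.03 to 1.39) in spinal cord progenitor-like cells against 0.774 (0.687 to 0.873) in lateral plate and splanchnic mesoderm-like cells and 0.678 in yolk sac endoderm-like cells.

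Vegfc was higher in yolk sac endoderm-like cells at 2.16, from 10 and 61 UMIs, in somite and sclerotome-like cells at 1.27 (1.15 to 1.41), in cluster 4 at 1.16 and in lateral plate and splanchnic mesoderm-like cells at 1.16, with a lower bound of 1.00, and lower in endothelial-like cells at 0.874. Flt1, at low levels outside the vessels, was higher in cluster 4 at 1.73 (1.22 to 2.50) and lower in surface ectoderm-like cells at 0.745 (0.571 to 0.973).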

How the results depend on the processing

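Of 220 alternative values, 198 stayed within the counting interval of the reported value or within 1.5 times of a count, 22 moved outside it, and 0 reversed a called direction. Whole-library ratios held apart from Vegfc, at 1.03 in cells with at least 1000 UMIs. Vegfa ran from 1.84 to 1.89 and Flt4 from 1.49 to 1.55. Leaving out the blood classes (chosen after seeing the data) took Flt4 under the 1.5-fold limit, at 1.49, so that 1 member and not 2 passed it. With doublets removed, the endothelial-like ratios of Vegfc and Flt1 were 0.745 and 0.923. No member was past 2-fold over whole libraries (0 in place of 2), and with a minimum of 500 UMIs 0 in place of 1 were higher in endothelial-like cells, since Vegfa has fewer UMIs there.

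The endothelial-like share was 6.35% in wild-type cells with at least 1000 UMIs, and 5.26% and 5.47% of wild-type and Usb1-null cells with doublets removed. Cells with 3 or more endothelial markers at 800 UMIs made up 4.70% and 3.82%. The cause was not tested. Co-detection followed depth by construction. Kdr with Flt1 was seen in 41.9% of wild-type and 63.4% of Usb1-null cells without thinning, and in 46.6% and 46.1% at 1500 UMIs. For Kdr with Flt4 the values were 16.7% and 38.3%, and 14.1% and 20.5%. For Kdr with Nrp1 they were 32.4% and 53.7%, and 32.5% and 35%.

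The Flt4 ratio outside the endothelial-like cells ran from 2.37 to 2.71 over the 8 alternatives run, which were chosen after seeing the data, and that of Kdr reached 1.52 in cells with no endothelial marker UMI and doublets removed. The Vegfa ratio was above 1 in 15 of 16 to 29 of 29 classes in the other clusterings, and that of Flt4 in 12 of 13 in the finest. Vegfa was highest in yolk sac endoderm-like cells in every clustering but the finest, where an unnamed cluster led by Galnt3, Frmpd4 and Pax9 was higher at 168 CPM. With another random seed Vegfc peaked in somite and sclerotome-like, Nrp2 in endothelial-like and Pgf in lateral plate and splanchnic mesoderm-like cells. Pgf also peaked in another, unnamed cluster at 1000 UMIs and in the finest clustering, and Vegfb in another unnamed cluster at 1000 UMIs and in limb and body wall mesenchyme-like cells without Harmony. Flt4 stayed highest in endothelial-like cells, but its second class changed. It was yolk sac endoderm-like cells without Harmony, at a mean of 14.4 against 282 CPM. With another seed or doublets removed it was an unnamed cluster, at 17.2 and 17.9 CPM. No paired analysis was possible because each group has 1 library. Depth limits Pgf and Vegfb in endothelial-like cells and Flt4 in the smaller classes.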
